A study of Homo sapiens with 6 samples.

Results

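The calcium/calmodulin-dependent kinases (CaM kinases) were followed as 10 genes, *CAMK1*, *CAMK1D*, *CAMK1G*, *CAMK2A*, *CAMK2B*, *CAMK2D*, *CAMK2G*, *CAMK4*, *CAMKK1* and *CAMKK2*, taken by name from the 58051 Ensembl genes counted in A172 cells. A172 is an established human glioblastoma line. The control cells stably carried a lentiviral construct for GFP and the other cells a lentiviral construct for RBFOX1, an RNA-binding splicing regulator that recognises UGCAUG, searched here as TGCATG, with 3 libraries of each. Both kinds of line were made with virus from packaging cells and polybrene, so that transduction is shared, and the RBFOX1 level is set by a construct. All 10 members were tested, and their change between RBFOX1 and GFP cells and the share of each gene within its subfamily are described here.

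CaM kinases read calcium signals through calmodulin, the small protein that binds calcium and then opens the kinase's active site. The upstream kinases CAMKK1 and CAMKK2 phosphorylate and switch on the CaMKI kinases (CAMK1, CAMK1D, CAMK1G) and CaMKIV (CAMK4), and CAMKK2 also acts on AMPK, the energy-sensing kinase. CaMKII is assembled as a many-subunit ring from the products of *CAMK2A*, *CAMK2B*, *CAMK2D* and *CAMK2G* and can keep itself active by autophosphorylation. The alpha and beta subunits are known mainly from neurons, where they are abundant at synapses, and the delta and gamma subunits from most tissues.

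RBFOX proteins bind their motif in introns and 3' UTRs, so the motif matches in the members' 3' UTRs are shown first. In the canonical transcripts of GENCODE release 44 (GRCh38), 8 of the 10 members held at least 1 TGCATG, 25 in all over 34230 nucleotides of 3' UTR, or 0.730 per kilobase. Among the 14050 tested protein-coding genes with an annotated 3' UTR, 36.5% held at least 1 and the density was 0.322 per kilobase. The members' 3' UTRs were long, with a median of 2689 against 1298 nucleotides. Of all tested genes with a 3' UTR longer than 2000 and up to 4000 nucleotides, 58.8% held a match, as did 4 of the 5 members in that class. The matches below show the motif in capitals and up to 12 nucleotides to each side. They are a selection from the CaMKII genes, whose members moved in both directions, and the first match of *CAMK4*, *CAMK1D* and *CAMKK1*. The last match of *CAMK2D* and those of *CAMK2G* between its first and last are not printed.
CAMK2A, the only match, chr5:150221212-150221217, minus strand: cactgttttcttTGCATGactttatacgca
CAMK2B, the only match, chr7:44217387-44217392, minus strand: ggataattctttTGCATGacccctaaagag
CAMK2D, first match, chr4:113454426-113454431, minus strand: tcctcctcttcaTGCATGtttctgagtgca
CAMK2D, second match, chr4:113454412-113454417, minus strand: catgtttctgagTGCATGaagttgtgaagg
CAMK2G, first match, chr10:73814362-73814367, minus strand: aatgcacgccccTGCATGcagccctcccgc
CAMK2G, last match, chr10:73812618-73812623, minus strand: atgcagaattttTGCATGacaacatagaaa
CAMK4, first match, chr5:111484620-111484625, plus strand: ttctaacttcaaTGCATGtgactgctttat
CAMK1D, first match, chr10:12828979-12828984, plus strand: gagaccccacctTGCATGgtgccccttcct
CAMKK1, first match, chr17:3862200-3862205, minus strand: gccccTGCATGcacccagggcca

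The *CAMK1D* 3' UTR (6658 nucleotides) held 8 matches, the most of any member, and that of *CAMK2G* (2017 nucleotides) held 5. *CAMK2D*, *CAMK4* and *CAMKK1* held 3 each. *CAMK2D* carried a close pair, 113 and 127 nucleotides past the stop codon, and *CAMKK1* a match 5 nucleotides past it. *CAMK1G*, *CAMK2A* and *CAMK2B* held 1 each. *CAMK1*, with a 3' UTR of 192 nucleotides, and *CAMKK2*, with one of 3007, held none. These are matches of letters on the sense strand of the transcript and not measured binding.

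**Figure D1:**
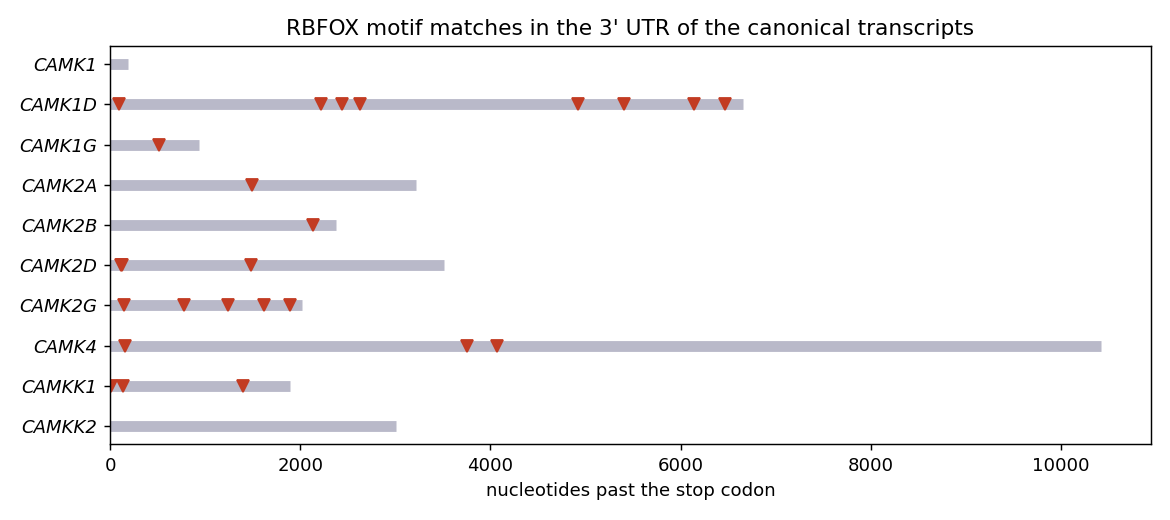
3' UTR of the canonical transcript of each member (grey bars, length in nucleotides past the stop codon) with each TGCATG match as a red triangle. *CAMK1D* has 8 matches and *CAMK2G* 5, while *CAMK1* and *CAMKK2* have none.

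The libraries held 7433414 to 23249221 counts on genes. *RBFOX1* had 4, 0 and 1 counts in the GFP libraries and 10276, 16467 and 21451 in the RBFOX1 libraries. Of the glial and glioblastoma markers, *VIM*, *NES* and *CD44* were abundant, whereas *GFAP* had 1 to 4 counts and *S100B* 0 to 2 in a library. Levels are given in CPM (counts scaled to a library of 1000000), and the 5 glial markers summed to between 5477 and 5595 CPM in GFP libraries and between 3618 and 3673 CPM in RBFOX1 libraries. They did not move together: *VIM* and *CD44*, which make up most of the sum, had log2 fold changes of -0.65 and -0.90, and *NES* one of 0.60, all of them called by edgeR. The 6 proliferation markers rose together, from a sum of 362 to 367 CPM to one of 970 to 1048. Neuronal markers moved in different directions, with *RBFOX3* and *SNAP25* at 3 counts or fewer in every library. *MAP2*, *SYP* and *STMN2* were higher, *SYT1* was lower, and *TUBB3* was not called (log2 fold change 0.36). Their sum over 7 genes went from 105 to 116 CPM down to 75.2 to 84.1. *SYT1*, which makes up most of that sum in both groups, had a log2 fold change of -1.17. The part of these shifts in the values of the CaM kinase genes was not tested. A lower count can come from fewer cells with a transcript or less of it per cell, which cannot be told apart in bulk RNA.

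Of the 10 members, 6 were higher and 1 was lower in RBFOX1 cells, and 3 did not pass the test (edgeR's quasi-likelihood fit to 20536 genes, Benjamini-Hochberg adjusted p below 0.05; SE below is the standard error). Over all genes tested, 23.7% were called higher and 22.9% lower. Among the 12012 genes averaging 50 or more normalized counts (counts scaled to one library size), 30.4% were called higher and 33.4% lower, compared with 5 and 0 of the 8 members at that level. The groups did not overlap in 7 members, against 53.4% of all genes tested. The median log2 fold change of the members was 0.38, and that of all genes tested was 0.0051. All 4 CaMKII genes passed the test, as did *CAMK4* and the minor CaMKI genes *CAMK1D* and *CAMK1G*, but neither *CAMK1* nor either of the upstream kinase genes did.

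**Figure D2:**
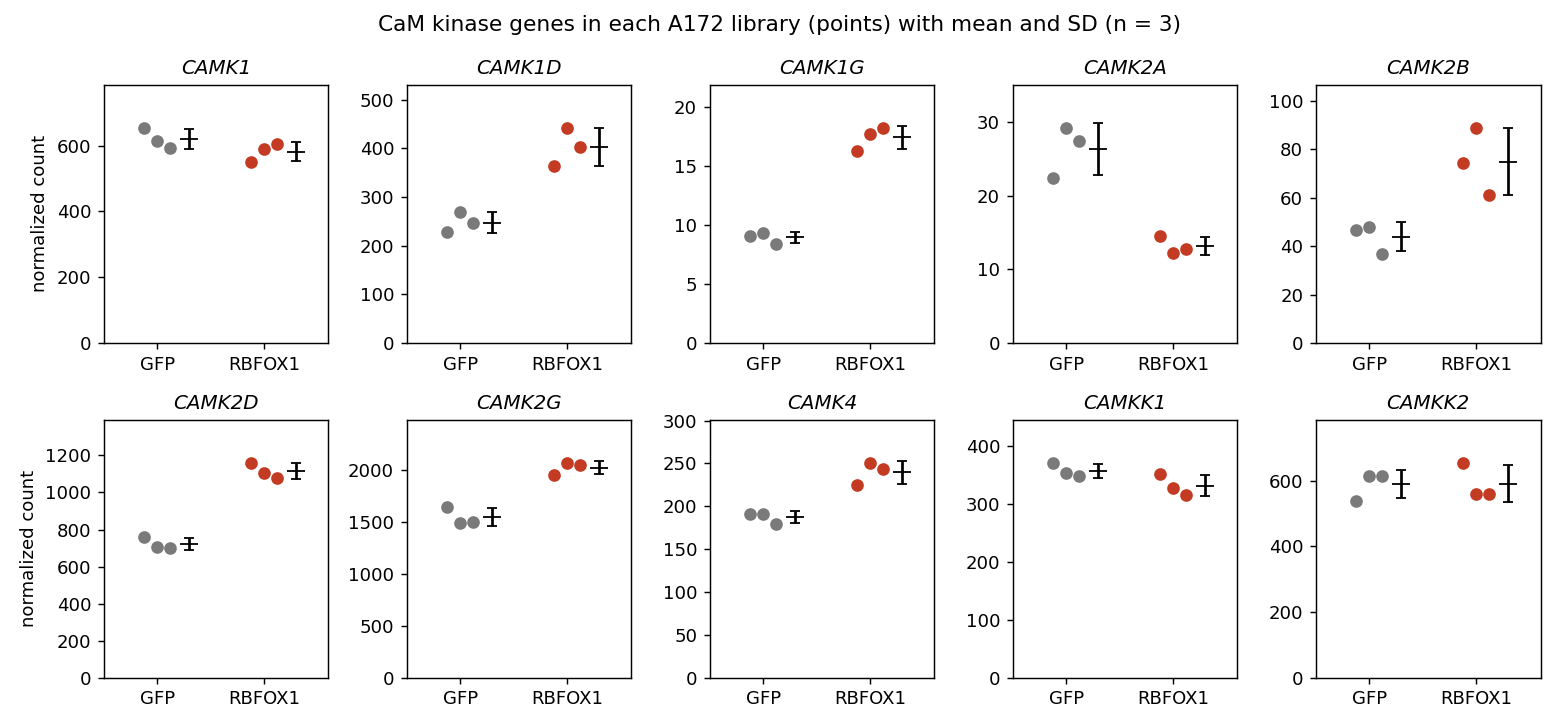
Normalized counts (y axes, from 0, a scale for each gene) of the 10 members in each of the 3 GFP (grey) and 3 RBFOX1 (red) libraries, with mean and SD (n = 3) in black. The groups are apart in *CAMK1D*, *CAMK1G*, *CAMK2A*, *CAMK2B*, *CAMK2D*, *CAMK2G* and *CAMK4* and overlap in *CAMK1*, *CAMKK1* and *CAMKK2*.

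Among the CaMKII genes, the widely expressed *CAMK2G* and *CAMK2D* carried nearly all of the signal and both rose. *CAMK2G* (ENSG00000148660, chromosome 10 of GRCh38, 73812501 to 73874591, minus strand) had 1645, 1491 and 1496 normalized counts in GFP replicates 1, 2 and 3 and 1952, 2068 and 2043 in RBFOX1 replicates 1, 2 and 3. Every RBFOX1 library lay above every GFP library, with a log2 fold change of 0.39 (SE 0.054, edgeR adjusted p = 5.28e-06). *CAMK2D* (ENSG00000145349, chromosome 4, 113418054 to 113761927, minus strand) had 759, 708 and 699 normalized counts in GFP and 1161, 1106 and 1076 in RBFOX1 libraries. It rose by 0.62 on the log2 scale (SE 0.0599, edgeR adjusted p = 4.01e-08), a fold of 1.53 with a gap between the groups of many times the spread within either.

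The neuronal subunit genes were present at low levels and went in opposite directions. *CAMK2A* (ENSG00000070808, chromosome 5, 150219491 to 150290093, minus strand) had 37, 25 and 26 counts in GFP libraries and 8, 11 and 14 in RBFOX1 libraries. After scaling these were 22.5, 29.2 and 27.4 against 14.5, 12.2 and 12.8 normalized counts, so that the lowest GFP library stayed above the highest RBFOX1 library. The log2 fold change was -0.98 (SE 0.270, edgeR adjusted p = 0.00521), but DESeq2 gave an adjusted p of 0.0688. *CAMK2B* (ENSG00000058404, chromosome 7, 44210019 to 44334577, minus strand) rose, with 77, 41 and 35 counts in GFP and 41, 80 and 67 in RBFOX1 libraries. Scaled, these were 46.7, 47.9 and 36.9 against 74.4, 88.8 and 61.2 normalized counts, and RBFOX1 replicate 3 came closest to the GFP range. Its log2 fold change was 0.75 (SE 0.178, edgeR adjusted p = 0.00164). The exons of *CAMK2B* overlap those of *YKT6*, a gene of vesicle transport on the opposite strand, over 2325 of 11598 exonic nucleotides. *YKT6* was far more abundant, at 2841 ± 99.4 normalized counts in GFP cells and 3247 ± 56.8 in the RBFOX1 ones (SD, n = 3 each), and rose by 0.19 on the log2 scale. The libraries were stranded, and the paper names no strand setting for the counting. Reads that fitted more than 1 gene were set aside as ambiguous, 6.89 to 9.35% in a library. How the overlap bears on the *CAMK2B* count was not tested.

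Counts of different genes are compared only per kilobase of exon. On that scale the 4 CaMKII genes summed to 17.1 ± 0.892 CPM per kilobase in GFP cells and 23.1 ± 0.418 in RBFOX1 cells (SD, n = 3 each), a difference of 0.44 in log2 level. The sums were 18.2, 16.6 and 16.6 in the GFP libraries and 22.8, 23.6 and 23.1 in the RBFOX1 libraries, without overlap. The exact permutation test (two-sided) gave p = 0.1, the smallest that 3 against 3 libraries allow, so that no sum, share or ratio could pass 0.05. Adjusted over the 15 such tests (Benjamini-Hochberg), an exact p of 0.1 became 0.167.

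Within CaMKII the share of *CAMK2D* was larger and that of *CAMK2G* smaller in RBFOX1 cells. *CAMK2D* made up 19.3, 19.6 and 19.5% of the CaMKII counts per kilobase in the GFP libraries and 23.5, 21.6 and 21.5% in the RBFOX1 libraries. *CAMK2G* made up 78.2, 77.3 and 77.9% in GFP and 74.0, 75.6 and 76.4% in RBFOX1 libraries. The mean difference was 2.76 percentage points for *CAMK2D* and -2.43 for *CAMK2G*, and neither group overlapped the other (exact permutation p = 0.1 each). The log2 ratio of *CAMK2D* to *CAMK2G* counts, in which length cancels between conditions, was -1.10 ± 0.0197 in GFP and -0.86 ± 0.0958 in RBFOX1 cells, again apart (SD, n = 3 each, exact permutation p = 0.1). The *CAMK2A* share was 1.18 ± 0.208% in GFP cells and 0.433 ± 0.0466% in RBFOX1 cells (SD, n = 3 each), again without overlap. That of *CAMK2B* was 1.59 ± 0.202% against 2.01 ± 0.346% (SD, n = 3 each, exact permutation p = 0.2, adjusted 0.273). Gene-level counts do not separate the splice forms of a gene, so these shares are between genes only.

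**Figure D3:**
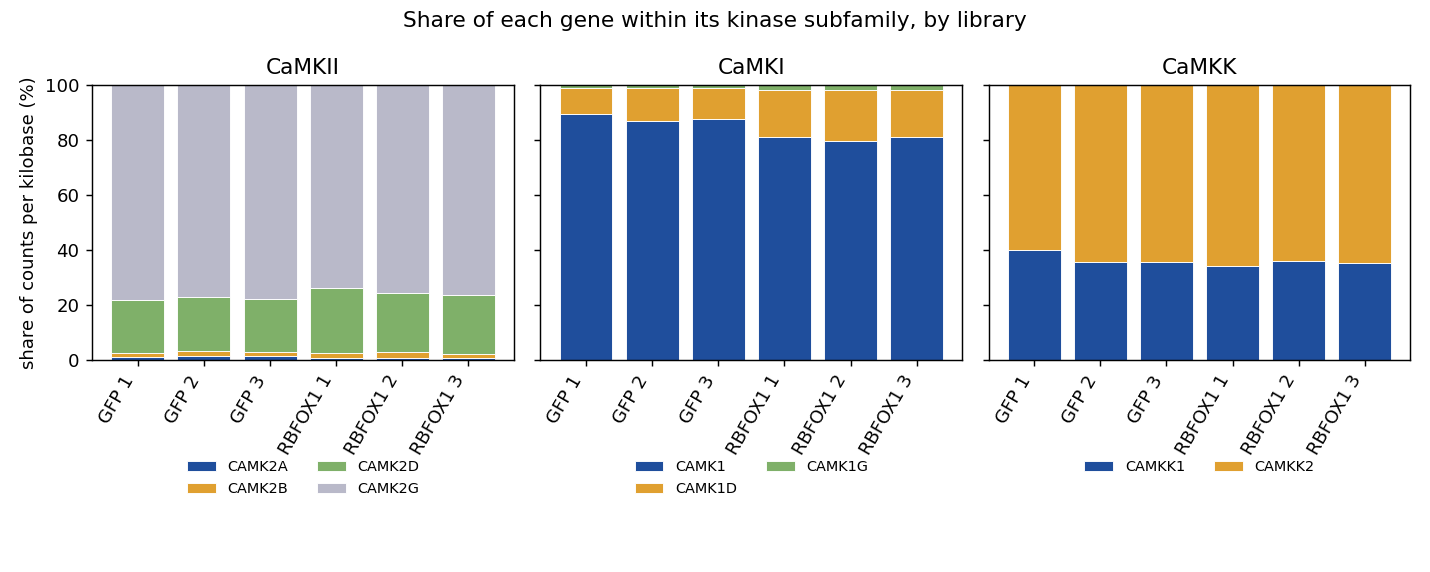
Share of each gene (stacked bars, percent of the counts per kilobase of exon of its subfamily) in each of the 3 GFP and 3 RBFOX1 libraries. *CAMK2G* and *CAMK1* hold most of their subfamilies in every library, and the *CAMK2D* and *CAMK1D* segments are larger in RBFOX1 libraries.

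Of the CaMKI genes, the most abundant did not pass the test and the minor ones rose. *CAMK1* (ENSG00000134072, chromosome 3, 9757347 to 9769992, minus strand) had 654, 615 and 593 normalized counts in GFP and 549.6, 589.5 and 606 in RBFOX1 libraries, and the groups overlapped. Its log2 fold change was -0.091, with a 95% interval from -0.23 to 0.051 in the edgeR fit (adjusted p = 0.300). Most of its exons, 2175 of 2715 nucleotides, lie opposite those of *OGG1*, a DNA repair gene on the other strand. *OGG1* had 514 ± 28.4 normalized counts in GFP cells and 444 ± 17.1 in RBFOX1 cells (SD, n = 3 each). It was called lower, with a log2 fold change of -0.22 (adjusted p = 0.0173 from edgeR). How this overlap bears on the *CAMK1* count was not tested. The levels and shares of *CAMK1* per kilobase divide by all 2715 nucleotides, whether or not reads over the shared ones were counted. *CAMK1D* (ENSG00000183049, chromosome 10, 12349547 to 12835545, plus strand) had 227, 269.8 and 245 normalized counts in GFP and 365, 442 and 402 in RBFOX1 libraries. It rose in every RBFOX1 library, by 0.73 on the log2 scale (SE 0.0900, edgeR adjusted p = 1.13e-06), or 1.66-fold. *CAMK1G* (ENSG00000008118, chromosome 1, 209583714 to 209613939, plus strand), a form best known from brain, had few counts, 15, 8 and 8 in GFP and 9, 16 and 20 in RBFOX1 libraries. Scaled, these were 9.11, 9.34 and 8.43 against 16.3, 17.8 and 18.3 normalized counts, with a log2 fold change of 0.96 (SE 0.311, edgeR adjusted p = 0.0147). DESeq2 gave 0.150, and without RBFOX1 replicate 3 the adjusted p from edgeR was 0.0548.

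The CaMKI sums overlapped between the groups, at 18.7 ± 0.738 CPM per kilobase in GFP cells and 19.2 ± 1.04 in RBFOX1 cells (SD, n = 3 each, exact permutation p = 0.5, adjusted 0.536), while the shares within CaMKI did not overlap. *CAMK1* made up 88.0 ± 1.18% in GFP cells and 80.6 ± 1.01% in RBFOX1 cells (SD, n = 3 each). The size of this share depends on the length used. It was 92.6% against 87.6% with the canonical transcript length, and 70.8% against 58.1% from raw counts without length. *CAMK1D* made up 9.70, 11.9 and 11.3% in the GFP libraries and 16.8, 18.6 and 16.8% in the RBFOX1 libraries, without overlap (exact permutation p = 0.1, adjusted 0.167). The *CAMK1G* share went from 1.04 ± 0.0359% to 1.97 ± 0.0215% (SD, n = 3 each). The log2 ratio of *CAMK1D* to *CAMK1* counts was higher by 0.80 in RBFOX1 cells (exact permutation p = 0.1).

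*CAMK4* encodes CaMKIV, a mainly nuclear kinase that phosphorylates the transcription factor CREB. The gene (ENSG00000152495, chromosome 5, 111223653 to 111494886, plus strand) had 191, 192 and 179 normalized counts in GFP and 225, 251 and 244 in RBFOX1 libraries. The lowest RBFOX1 library lay above the highest GFP library, and the log2 fold change of 0.37 was the smallest among the members that rose (SE 0.0902, edgeR adjusted p = 0.00221). Per kilobase of exon its level was 0.990 ± 0.0367 CPM in GFP cells and 1.27 ± 0.0711 in RBFOX1 cells (SD, n = 3 each), seventh of the 10 members in both.

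The upstream kinase genes did not pass the test. *CAMKK1* (ENSG00000004660, chromosome 17, 3860315 to 3894891, minus strand) had 371, 353 and 348 normalized counts in GFP and 352, 326 and 316 in RBFOX1 libraries. Its log2 fold change was -0.12, with a 95% interval from -0.29 to 0.040 (adjusted p = 0.219 from edgeR). *CAMKK2* (ENSG00000110931, chromosome 12, 121237675 to 121298308, minus strand) had 539, 615 and 613 normalized counts in GFP and 655, 559.6 and 558 in RBFOX1 libraries. The first replicate of each group stood apart from the other two, in opposite directions, and the means differed by a log2 fold change of -0.00092 with a 95% interval from -0.16 to 0.16 (adjusted p = 0.994 from edgeR). *CAMKK2* made up 63.0 ± 2.55% of the CaMKK counts per kilobase in GFP cells and 64.8 ± 0.945% in RBFOX1 cells (SD, n = 3 each, exact permutation p = 0.4, adjusted 0.462). The summed CaMKK level was 9.38 ± 0.322 CPM per kilobase in GFP cells and 9.15 ± 0.731 in RBFOX1 cells (SD, n = 3 each, exact permutation p = 0.8, adjusted 0.800). The log2 ratio of *CAMK4* to *CAMKK2* counts differed by 0.36, with overlap between the groups (exact permutation p = 0.2, adjusted 0.273).

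**Figure D4:**
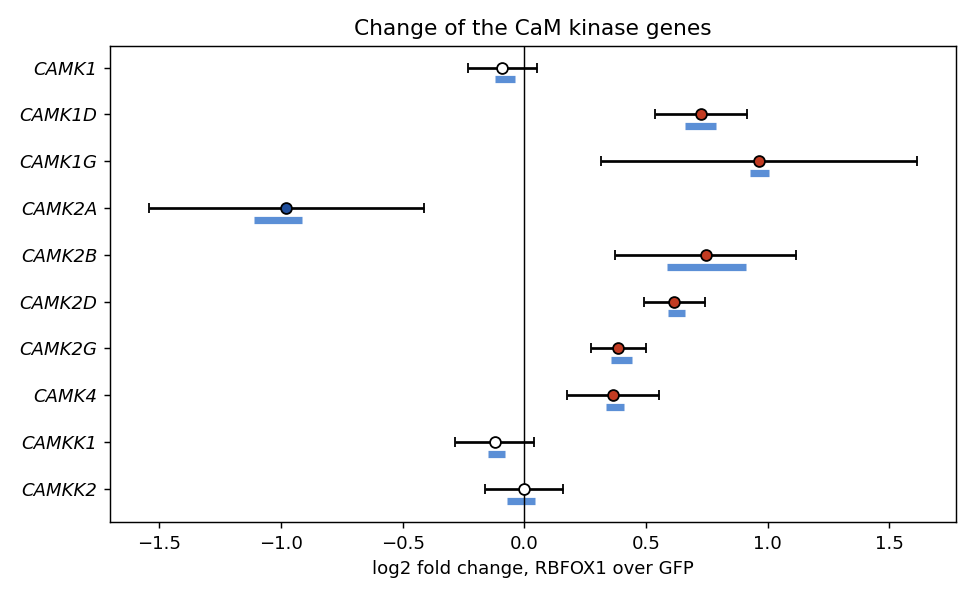
Log2 fold change of each member in RBFOX1 over GFP cells (points) with its 95% interval from the edgeR fit (black bars) and the range over the 13 alternative fits (blue bars below). Red points passed the test as higher, the blue point as lower and white points did not pass; the *CAMK1*, *CAMKK1* and *CAMKK2* intervals hold 0.

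Ordered by level per kilobase of exon in GFP cells, the members ran from *CAMK1* (16.5 CPM per kilobase) and *CAMK2G* (13.3) over *CAMKK2* (5.92), *CAMKK1* (3.46), *CAMK2D* (3.33), *CAMK1D* (2.05) and *CAMK4* (0.990) to *CAMK2B* (0.272), *CAMK2A* (0.200) and *CAMK1G* (0.194). The libraries of *CAMKK1* and *CAMK2D* overlapped, as did those of *CAMK2A* and *CAMK1G*, so that these neighbours have no clear order. In RBFOX1 cells *CAMK2G* (17.4) stood above *CAMK1* (15.4), *CAMK2D* (5.14) above *CAMKK1* (3.21) and *CAMK1G* (0.378) above *CAMK2A* (0.1001), each pair without overlap between the libraries. With the length of the canonical transcript in place of all annotated exons, *CAMK2D* came above *CAMKK2* in RBFOX1 cells (13.9 against 8.68 CPM per kilobase), and the libraries of *CAMK1* and *CAMK2G* overlapped in GFP cells. With that length *CAMK2D* was already above *CAMKK1* in GFP cells (8.996 against 7.20 CPM per kilobase) and *CAMK2A* above *CAMK1G* (0.393 against 0.263), both without overlap, so that the place of these genes in the GFP order depends on the length used. Sequence shared between members is short: of their transcripts' 50-nucleotide words, only 1 occurs in more than 1 member, in *CAMK1D* and *CAMKK1*, and none in 2 CaMKII genes. The longest run that *CAMK2A* shared with any other member was 35 nucleotides, in *CAMK2B*.

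Motif matches and direction can be set side by side in these 10 genes. The 6 members that rose held 1 to 8 matches. *CAMK2A*, which fell, held 1, like *CAMK2B* and *CAMK1G*, which rose. Of the 3 members that did not pass the test, *CAMK1* and *CAMKK2* held none and *CAMKK1* held 3. The shorter word GCATG, which every match contains, gives another picture. It occurred 6 times in *CAMK2A*, 4 in *CAMK2B* and *CAMK2D*, 1 in *CAMK1G*, 7 in *CAMK2G*, 11 in *CAMK4* and 13 in *CAMK1D*. *CAMKK2* held 3, *CAMKK1* 5 and *CAMK1* 0. A link between matches and direction was not tested.

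For *CAMK2B*, which had the largest log2 fold change among the members called with a mean of at least 50 normalized counts, the protein-coding genes with the most similar log2 CPM over the 6 libraries were *GINS1*, *LUC7L* and *PER3* (Pearson's r = 0.991, 0.988 and 0.986). All 6 points share the same libraries and fall into 2 conditions, and 986 of 14093 protein-coding genes had an r over 0.9.

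The other genes of the pathway were taken from a list of 64, of which 61 were tested. Of these, 36 (59.0%) were higher and 10 (16.4%) lower in RBFOX1 cells, against the 23.7% and 22.9% of all genes tested, with a median log2 fold change of 0.40. At a mean of at least 50 normalized counts, 29 of 49 were higher and 9 lower, against 30.4% and 33.4% of all genes at that level. The list was chosen with earlier results of these data known, so these counts describe it and are no test of the pathway.

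The calmodulin genes *CALM2* and *CALM3* both rose. *CALM2* had 11936, 11337 and 11492 normalized counts in GFP and 16005, 17150 and 16484 in RBFOX1 libraries, and *CALM3* had 923, 1005 and 942 against 1623, 1532 and 1553. Neither gene's groups overlapped, and the rise was 0.51 and 0.72 on the log2 scale (adjusted p = 1.99e-08 and 1.51e-09 from edgeR). The small calmodulin-binding proteins *NRGN*, *PCP4* and *GAP43* were all called higher. *GAP43*, a growth-cone protein, went from 45.5, 29.2 and 49.5 to 132, 149 and 134 normalized counts, a log2 fold change of 1.71. *PCP4* had at most 1 count in a GFP library and was at least 6.56-fold higher, computed against 3 counts per library.

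Inhibitors and phosphatases of the pathway were mostly higher, 6 of 8, with 1 lower. Of all genes tested, 23.7% were higher and 22.9% lower. *CAMK2N1* and *CAMK2N2*, whose products bind and inhibit CaMKII, both rose. *CAMK2N1* had 95.3, 80.6 and 91.7 normalized counts in GFP and 116, 149 and 119.6 in RBFOX1 libraries, a log2 fold change of 0.52 (adjusted p = 0.00265 from edgeR). *CAMK2N2* had 40.1, 54.9 and 39.0 in GFP and 65.3, 79.9 and 64.8 in RBFOX1 libraries, a log2 fold change of 0.68 (adjusted p = 0.00309 from edgeR). The related phosphatases that dephosphorylate CaM kinases went opposite ways. *PPM1E* rose, from 102.3 ± 15.8 normalized counts to 229 ± 16.5, and *PPM1F* fell from 1811 ± 137 to 983 ± 38.5 (SD, n = 3 each), with log2 fold changes of 1.17 and -0.88. The calcineurin subunit gene *PPP3R1* rose, from 433 ± 30.8 normalized counts to 943 ± 2.81 (SD, n = 3 each), or by log2 1.13.

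Of the 12 related calmodulin-regulated or CaM kinase-like genes, 10 were higher and 1 lower, against 23.7% and 22.9% of all genes tested. *DAPK1*, a death-associated kinase gene, rose, from 594 ± 12.1 normalized counts to 1327 ± 54.8 (SD, n = 3 each), or by log2 1.16. *DCLK1*, a doublecortin-like kinase gene, fell from 379 ± 38.9 to 194 ± 26.9 (SD, n = 3 each), or by log2 -0.94.

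AMPK and CREB-responsive genes were called higher and lower equally often, and the other downstream groups more often higher. Of all genes tested, 23.7% were called higher and 22.9% lower. At a mean of at least 50 normalized counts, those shares were 30.4% and 33.4%. Among 16 transcription factors, coactivators and class IIa histone deacetylases, 8 were higher and 2 lower, and *CREB1*, the CaMKIV target, had a log2 fold change of 0.040 (adjusted p = 0.666 from edgeR). The AMPK subunit genes had 2 higher, 2 lower and 2 that did not pass. *PRKAB2* had the largest fall of these, from 693 ± 22.2 to 455 ± 12.6 normalized counts (SD, n = 3 each), or by log2 -0.61. Of 8 CREB-responsive genes, 3 were higher and 3 lower. *DUSP1*, a phosphatase gene of the immediate early response, rose, from 257 ± 21.7 normalized counts to 671 ± 13.5 (SD, n = 3 each). *PPARGC1A*, a coactivator of mitochondrial genes, fell from 102.5 ± 7.82 to 54.0 ± 7.26 (SD, n = 3 each), or by log2 -0.95. *NR4A1* changed by -0.65 on the log2 scale (adjusted p = 0.0106 from edgeR), although its libraries overlapped between the groups. Of 8 CaMKII substrates at the synapse and membrane, 5 had enough counts to be tested. Of these, 2, *RYR2* and *KALRN*, were higher and 0 lower. *GRIN2B* had no count in any library.

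**Figure D5:**
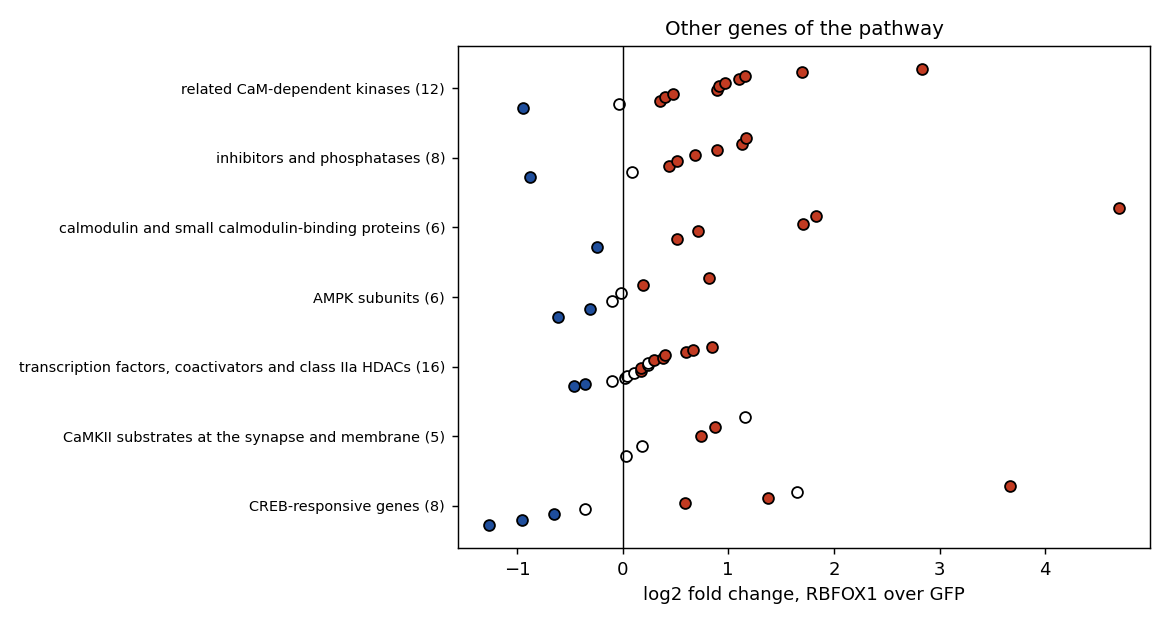
Change (log2, RBFOX1 over GFP) of the 61 tested genes of the pathway list, by group (number of genes in brackets), with red points called higher, blue called lower and white not called. Related kinases, inhibitors and phosphatases, and the group of calmodulin and calmodulin-binding proteins lie mostly to the right of 0, and AMPK and CREB-responsive genes on both sides; 4 genes with at most 3 counts per GFP library have fitted values that depend on the prior count.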

How the data were processed

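Total RNA from 3 GFP and 3 RBFOX1 samples gave 6 rRNA-depleted, strand-specific libraries. The authors aligned reads to GRCh38 with HISAT2, ran HTSeq-count (intersection-strict, on Ensembl genes) and deposited raw counts per gene. Tool versions are not given in the sources used here, and the paper names no strand setting for the counting. Reads counted on no gene stayed out, leaving 52.0 to 61.9% of read pairs. The authors' DESeq2 table of means, fold changes and p-values was not used. Genes with at least 10 counts in all were TMM-scaled and tested with edgeR 4.0.16 (R 4.3.3), quasi-likelihood, two-sided, Benjamini-Hochberg over 20536 genes, threshold 0.05, group as the only term. Alternatives used DESeq2 1.42.0, limma 3.58.1 (voom), other scalings and filters, a replicate block and each library left out. The procedure was tested on simulated data with far fewer changed genes than were called here. None of those changed genes had counts as low as *CAMK1G* and *CAMK2A*, so the simulation covers neither case.

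CPM are counts scaled to an effective library size of 1000000. Normalized counts are counts divided by the effective library size relative to its mean. A count of 3 per library was worth 1.82 to 5.44 normalized counts and served as floor, which covers counting error only. Replicates differed beyond counting noise (lowest chi-square over degrees of freedom 1.66, for GFP replicates 2 and 3). The value was 8.90 and 9.07 for GFP replicate 1 against replicates 2 and 3, and 1.98 to 3.01 between RBFOX1 replicates. The study calls them biological replicates; the labels do not say whether they are separate transductions, so p-values measure the spread between these libraries. Exon lengths, symbols (98.1% of identifiers matched) and 3' UTRs came from GENCODE 44, later than the counting annotation. TGCATG was searched on the transcript strand only.

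The members and lists were chosen with earlier results of these data known. Named were all members, *RBFOX1*, *CALM2*, *CALM3*, *CAMK2N1*, *CAMK2N2*, the 5 pathway genes that rose most and the 5 that fell most among those called at a mean of at least 50 normalized counts, and the 3 genes most correlated with the called member of largest change at that mean. Marker genes were named from their lists; any other gene was named after its values were seen. One gene that the rule names is not reported here.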

Additional observations from a re-analysis of the deposited data

How the results depend on the processing

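Under 13 alternatives, 120 values of member genes kept direction and call, 3 lost the call and 7, all of *CAMKK2*, changed sign. DESeq2 called 5 members higher and 0 lower, where *CAMK2A* had an unadjusted p of 0.0263 and was the 1 member lower at an unadjusted p under 0.05. *CAMK1G* lost its call with DESeq2 and without RBFOX1 replicate 3, as given above. *CAMKK2*, near 0 throughout, changed sign to 0.0055 (DESeq2 size factors in edgeR), 0.014 (filterByExpr) and 0.0057 (DESeq2), and lay between -0.070 and 0.044 with a library left out. Leaving out a library gave *CAMK2B* 0.59 to 0.91, *CAMK2A* -1.11 to -0.91 and *CAMK4* 0.34 to 0.41. From raw counts without length, the *CAMK2D* share differed by 3.65 percentage points instead of 2.76, and the *CAMK1D* share by 11.9 instead of 6.44. Replicate numbers did not pair the libraries (correlation of deviations -0.164, 0.038 and -0.054 for numbers 1, 2 and 3). The replicate block left 6 members higher and 1 lower and, of the pathway list, 34 higher and 10 lower. Depth limits *CAMK1G* and *CAMK2A* most, at 8 to 37 counts a library.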
